A study of Mus musculus with 2 samples.

Results

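The regions described here are stretches of open chromatin inside the introns of very long genes in the mouse frontal cortex. They were chosen by position and by being open in both libraries, not by their values. Peaks of both DNase-seq libraries were merged, merged regions overlapped by a peak of each library were kept, and of these the regions were taken whose centre lay in a protein-coding gene of 300 kb or more, in no annotated exon and more than 1 kb from every protein-coding transcription start site (TSS). This gave 4377 of the 58371 regions shared by both libraries, or 7.5%. The mice were 25 days old females of B6CASTF1/J, a cross of C57BL/6J with CAST/EiJ, from which frontal cortex was taken for 2 libraries of 1 group, with no treatment, mutation or control group in the labels. The labels call the libraries biological replicates from separate biosamples but give them a single donor identifier, so the spread between them need not be a spread between animals. Nuclei were isolated from whole tissue, per the labels' protocols, and in such bulk material a region open in more cells and a region more open in each cell cannot be told apart. With 2 libraries of 1 group there is no contrast to test, so values of replicate 1 and replicate 2 are given side by side and no p-value is given.

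DNase-seq maps open chromatin through the preference of the enzyme DNase I for DNA that is not wrapped in nucleosomes, and a footprint is a short stretch within an open region where a bound protein shields the DNA from the enzyme. Very long genes are unusually common among genes of neurons: adhesion molecules, receptors, channels and their scaffolds are often spread over huge introns. Such introns hold distal regulatory elements, among them enhancers bound by transcription factors and sites of CTCF, the zinc finger protein that, with cohesin, anchors chromatin loops.

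The annotation held 567 protein-coding genes of 300 kb or more, and they carried 310.5 Mb of sequence in which a region could qualify. The label of long genes had an exception. Of the 567 gene records, 8 spanned 5 or more other protein-coding genes: Gm20388 on chromosome 8 spanned 71 genes over 4434.88 kb and the Fgfr2 record, for a fibroblast growth factor receptor, spanned 29 genes over 2960.9 kb. These 8 records held 293 of the regions, or 6.69%, and 157 regions also lay in a protein-coding gene under 300 kb, so that some regions counted here sit between or within ordinary short genes. The length limit fell among genes with similar numbers of regions. Just inside it, Kcnq3, a potassium channel gene of 300256 bp, had 9 regions, Pam (300533 bp) had 4 and Nxph1 (300602 bp) had 4; just outside it, Jazf1 (299835 bp) had 8, Akap13 (299076 bp) had 2 and Atp2b2, a calcium pump gene of 298783 bp, had 11.

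The longer peak list held 85603 peaks in replicate 1 and 87847 in replicate 2. Sequencing depth is not given in the sources used here. Each value is the authors' read-depth normalized signal of a peak on a scale that is not stated, and the values came in steps of 0.00565 in replicate 1 and 0.00571 in replicate 2 (all to within 0.1 of a step); the median region had 106 and 126 steps and the weakest 14 and 12, so the weakest values rest on few steps. Of 10 promoters looked up to check the tissue, 8 were open in both libraries, from the neuronal genes Syt1 (2.35 and 3.6) and Camk2a (1.84 and 2.87) to the oligodendrocyte lineage gene Olig1 (1.26 and 1.44) and the microglial gene C1qc (1.05 and 0.999). The endothelial gene Cldn5 had a promoter peak in replicate 2 alone, and the liver gene Alb had none in either.

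The strongest of these regions show what an open intronic site looked like at the level of bases. The 5 sequences that follow are among the strongest regions whose sequence occurs once in the genome. They are read from the RefSeq GRCm38.p6 (mm10) assembly, plus strand, 5′ to 3′, which is the C57BL/6J reference and not the CAST/EiJ allele, and capitals mark bases inside a footprint of both libraries. The first lies in intron 9 of Camta1, a calmodulin-binding transcription activator, the second in intron 4 of Rasgef1b, an exchange factor for small GTPases, the third in intron 2 of Nfia, a transcription factor of the nuclear factor I family, the fourth in intron 1 of Fam155a, and the fifth in intron 1 of Ptprt, a receptor tyrosine phosphatase.
Camta1, chr4:151141621-151141840: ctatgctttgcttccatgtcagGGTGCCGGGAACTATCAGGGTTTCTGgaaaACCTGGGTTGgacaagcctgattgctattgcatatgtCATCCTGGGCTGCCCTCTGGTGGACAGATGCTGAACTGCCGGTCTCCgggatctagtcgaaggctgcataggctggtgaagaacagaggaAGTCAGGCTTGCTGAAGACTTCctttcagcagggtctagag
Rasgef1b, chr5:99248561-99248760: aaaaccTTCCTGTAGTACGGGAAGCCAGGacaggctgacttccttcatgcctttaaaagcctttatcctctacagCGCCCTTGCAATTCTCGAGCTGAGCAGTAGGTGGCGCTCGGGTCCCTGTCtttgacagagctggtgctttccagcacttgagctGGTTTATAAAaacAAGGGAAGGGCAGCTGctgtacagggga
Nfia, chr4:97868941-97869140: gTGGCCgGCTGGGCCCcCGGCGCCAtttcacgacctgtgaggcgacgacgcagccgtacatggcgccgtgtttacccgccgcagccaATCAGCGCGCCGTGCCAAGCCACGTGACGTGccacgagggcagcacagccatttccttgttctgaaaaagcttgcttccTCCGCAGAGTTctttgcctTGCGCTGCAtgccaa
Fam155a, chr8:9233441-9233600: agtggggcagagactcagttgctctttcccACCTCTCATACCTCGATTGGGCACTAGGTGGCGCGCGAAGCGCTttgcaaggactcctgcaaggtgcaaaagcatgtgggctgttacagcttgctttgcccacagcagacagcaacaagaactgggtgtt
Ptprt, chr2:162659101-162659320: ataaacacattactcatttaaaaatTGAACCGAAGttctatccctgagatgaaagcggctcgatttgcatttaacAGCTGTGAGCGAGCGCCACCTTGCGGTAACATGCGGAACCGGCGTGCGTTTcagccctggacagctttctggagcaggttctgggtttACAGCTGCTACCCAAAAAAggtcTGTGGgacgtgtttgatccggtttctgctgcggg

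The values of these 5 regions were high in both libraries. The Camta1 region measured 6.39 in replicate 1 and 6.26 in replicate 2, and it lay 2147 bp from a TSS of the same gene. Rasgef1b followed with 5.83 and 5.61, Nfia with 3.94 and 4.40, Fam155a with 4.12 and 3.72, and Ptprt with 4.01 and 3.09. In the Camta1 sequence, all 12 bases of a match to the CTCF consensus lay within a footprint of both libraries. The Rasgef1b and Fam155a sequences each held a match with 1 base off that consensus, whereas the Nfia and Ptprt sequences held none within that limit. Looser matches were not counted.

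A further pair of sequences shows matches to motifs of other factors, in capitals. Both were taken from single-copy regions of single-gene records with the match inside the region, and stronger matching regions outside that choice are not printed. The first is a strong region with a match to GTTGCCATG, bound by RFX factors, and held this motif in 2 copies, both read here on the opposite strand; it lay next to the strongest Camta1 region, 1227 bp from a Camta1 TSS. The second, in Adam12, a membrane-bound metalloprotease gene, is a strong region with a match to TGANTCA. This pattern, in which N is any base, was counted as the motif of the AP-1 factors, which include the activity-induced FOS and JUN proteins. The usual AP-1 site has C or G as its middle base, while the match printed here has A. Matches were not split by that base.
Camta1, chr4:151140721-151140900: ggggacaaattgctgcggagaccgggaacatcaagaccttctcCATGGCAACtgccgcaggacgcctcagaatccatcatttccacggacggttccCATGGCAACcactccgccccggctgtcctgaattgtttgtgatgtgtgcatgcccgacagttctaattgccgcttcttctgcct
Adam12, chr7:134223861-134224060: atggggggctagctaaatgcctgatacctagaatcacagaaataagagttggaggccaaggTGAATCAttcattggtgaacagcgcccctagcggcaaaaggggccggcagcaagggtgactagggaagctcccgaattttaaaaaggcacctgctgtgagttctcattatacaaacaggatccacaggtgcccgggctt
The Camta1 region with the RFX matches measured 2.38 in replicate 1 and 3.29 in replicate 2. The Adam12 region measured 2.99 and 1.78, and lay 1136 bp from an Adam12 TSS.

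Some of the highest values belonged to sequence that is not unique. The highest value of all, 11.5 in replicate 1 and 7.70 in replicate 2, was that of a region of 240 bp in Gphn, which encodes the inhibitory synapse scaffold gephyrin, and 63.8% of its 31-base words occurred again in the genome, up to 6 times. A region in Cmss1 measured 8.34 and 4.72 with 100% of its words repeated, up to 14 times, and one in Mid1 measured 5.28 and 3.99 with words repeated up to 10 times. Repeated sequence touched few of the regions: the central 31-base word occurred again in 35 of the 4377, these 3 included, or 0.8%, against 1.56% of all shared regions. Whether reads from other copies add to these 3 values was not tested.

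Most regions were narrow and of moderate value. Their median width was 220 bp, with the 10th percentile at 152 and the 90th at 360 bp. Their median value was 0.599 in replicate 1 and 0.719 in replicate 2 (mean 0.659 ± 0.0852, SD, n = 2), and the 10th to 90th percentiles ran from 0.362 to 1.31 and from 0.423 to 1.49. Introns of shorter genes had higher medians, 0.735 and 0.845, as had intergenic regions, 0.684 and 0.777, and promoters, 1.35 and 1.42. The median in very long genes was thus below that of each of these classes within the same library. The base composition of the regions stood apart from the sequence around them: the median GC content was 50.2% against 40.6% of the sequence in which a region could qualify, and 7.88% of their bases were repeat-masked against 28.9% of that sequence. The median region had 3 CpG dinucleotides, where the median promoter region had 23.

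**Figure D1:**
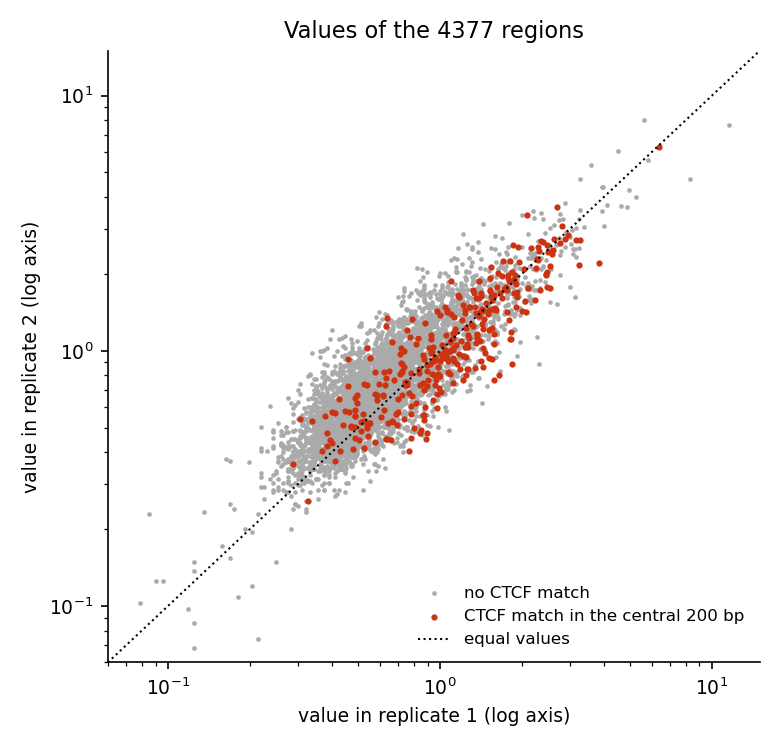
Value of each of the 4377 regions in replicate 1 (x axis) and replicate 2 (y axis), in units of the authors' normalized signal on log axes, with the line of equal values; regions with a match to the CTCF consensus are in red. The cloud lies above the line for most regions (70.9% are higher in replicate 2), while the red points lie around it.

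The libraries ordered the regions alike, with a Spearman correlation of 0.816 over the 4377 regions, which share each library's depth and are not independent. Replicate 2 had the higher value in 70.9% of them, and the median log2 ratio of replicate 1 to replicate 2 was -0.22, with an SD of 0.41 over regions. Regions in introns of shorter genes had a median of -0.18 and all shared regions one of -0.14. Values over 2-fold apart were uncommon, at 2.97% of the regions against 1.93% in shorter genes and 1.76% of all shared regions. The widest gap toward replicate 1 was that of a weak region in the Gm20388 record, at 0.215 and 0.0742, and the next that of a region in Btbd9, at 2.31 and 0.891. Toward replicate 2 it was in the potassium channel gene Kcnq1, at 0.401 and 1.20, a log2 ratio of -1.59.

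Being open in both libraries was itself less common in these introns. In the sequence that could qualify there were 9563 merged regions, of which 2250 had a peak in replicate 1 alone and 2936 in replicate 2 alone, leaving 45.8% shared. The share was 49.6% in introns of shorter genes and 53.7% over all merged regions. Peaks found in a single library were weak, with medians of 0.362 for replicate 1 and 0.411 for replicate 2, near the 10th percentile of the shared regions.

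Open regions were sparser in very long genes than in shorter ones, and this went with the base composition of their introns. There were 14.1 shared regions per Mb of very long introns and 19.8 per Mb of introns of genes under 300 kb, a ratio of 0.713. In single libraries the densities of peaks were 21.7 and 24 per Mb against 29.2 and 31.7, and the ratios 0.743 and 0.756. For scale, intergenic sequence had 12.8 shared regions per Mb, exons 30.1 and promoters 200. Density stood near 20 per Mb across the shorter genes and was lower above the limit: 22.0 in genes under 10 kb, 19.4 in genes of 100 to 300 kb, 16.4 at 300 to 500 kb, 12.7 at 500 kb to 1 Mb and 12.5 in genes of 1 Mb or more. Both libraries showed this order above 100 kb, with 28.6, 25.8, 19.5 and 18.6 peaks per Mb in replicate 1 and 31.6, 27.2, 22.4 and 21.3 in replicate 2.

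**Figure D2:**
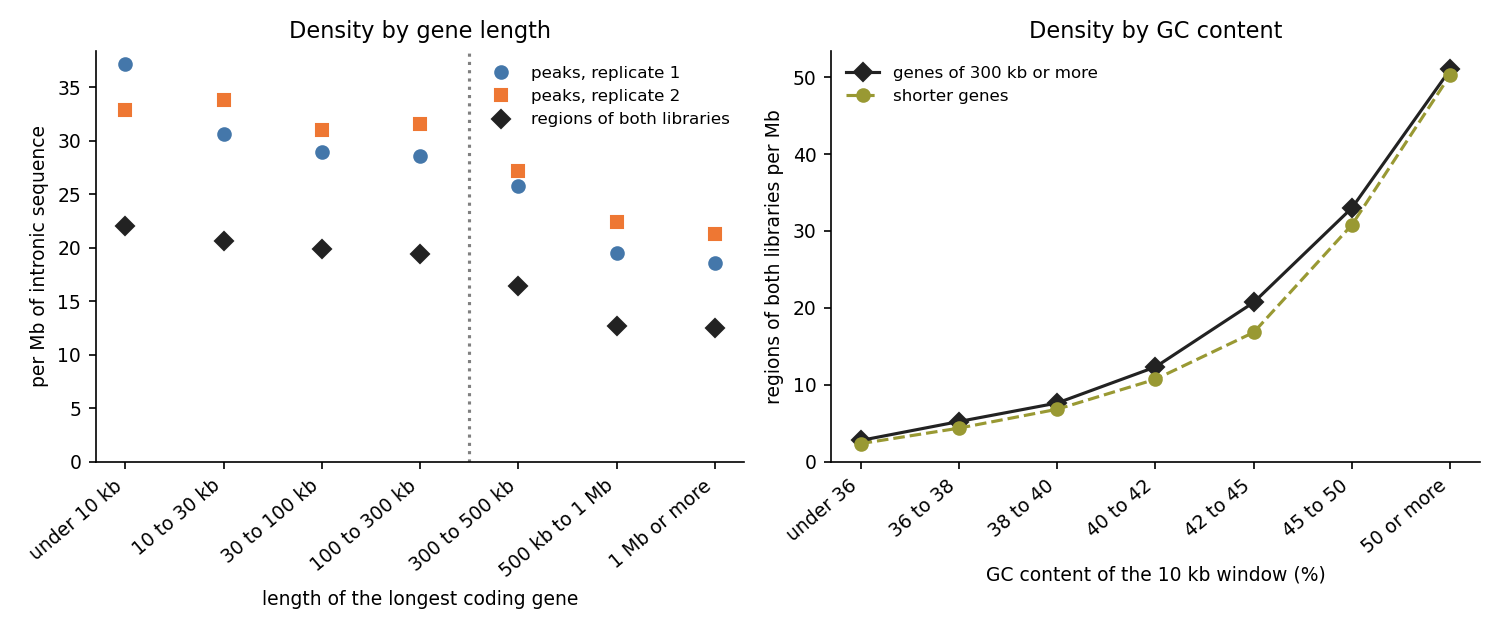
Left, regions per Mb of intronic sequence by gene length class, for peaks of each library and for shared regions, with a dotted line at 300 kb. Right, shared regions per Mb by GC content of the 10 kb window, in very long and in shorter genes; density falls with gene length on the left, and on the right it climbs from 2.74 to 51.0 per Mb in very long genes with the shorter genes level with or below them.

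Within windows of 10 kb with like GC content the density of shared regions was higher in very long genes, except that the classes were nearly level in the windows richest in GC. In windows under 36% GC, which made up 9.29% of the sequence of very long genes and 2.87% of that of shorter ones, there were 2.74 regions per Mb in very long genes and 2.33 in shorter genes. At 42 to 45% GC the densities were 20.7 and 16.8, and at 50% or more, a class of 2.01% and 9.04% of the sequence, they were 51.0 and 50.3. In that last class the peaks of single libraries went the other way, with 72.1 against 72.4 per Mb in replicate 1 and 72.4 against 74.5 in replicate 2. Had very long genes had the density of shorter genes in each GC class, they would have held 3850 regions where 4377 were found, a ratio of 1.14, with 1.16 and 1.17 for the peaks of single libraries. With distance to the nearest TSS held alike as well the ratio was 1.06 (1.11 and 1.10 for single libraries). It was 1.01 with the shorter peak list of each library, which holds the stronger peaks. These comparisons at like GC content were added after the data had been seen.

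The excess over shorter genes at like GC content lay near start sites. Between 1 and 20 kb from a TSS the ratio at like GC was 1.26 (1.34 and 1.31 in single libraries), and beyond 20 kb it was 1.01 (1.04 and 1.04). With the shorter peak lists it was 1.18 near start sites and 0.889 beyond 20 kb, where the direction turned. Among the genes themselves density followed GC content closely and length weakly: over 557 genes outside the multi-gene records, the Spearman correlation of regions per Mb was 0.752 with the GC content of the gene's introns and -0.177 with gene length, as a description of genes that share libraries and base composition. The 111 genes under 38% GC had 5.16 regions per Mb (8.70 and 9.70 peaks in single libraries) and 16 of them had none. The 69 genes at 45% or more had 29.2 per Mb and none was without a region. What links GC content to these densities was not tested.

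Along the gene, density was highest at both ends, with GC content not held alike. Cut into 10 equal parts from the 5′ end, very long genes had 16.5 regions per Mb in the first part and 17.3 in the last, with 12.1 to 15.1 in the parts between. The first part held 504 regions, or 11.5% of them, on 9.86% of the sequence, and the last held 500. Among regions more than 2.5 kb from a TSS the first part held 9.53%, with its share of the sequence not computed at that limit. Peak densities of single libraries at both ends were 27.9 and 26.4 in the first part and 25.8 and 28.9 in the last. In the parts between they ran from 18.9 to 22.4 in replicate 1 and from 21.3 to 26.3 in replicate 2. The first part of replicate 2 thus stood level with its 8th part. First introns, which often carry enhancers of their own gene, held 1063 of the 4372 regions in genes with a coding transcript of 2 or more exons. This was 24.3% of those regions on 21.3% of the qualifying sequence. First introns had 16.1 regions per Mb against 13.6 in the rest of that sequence.

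**Figure D3:**
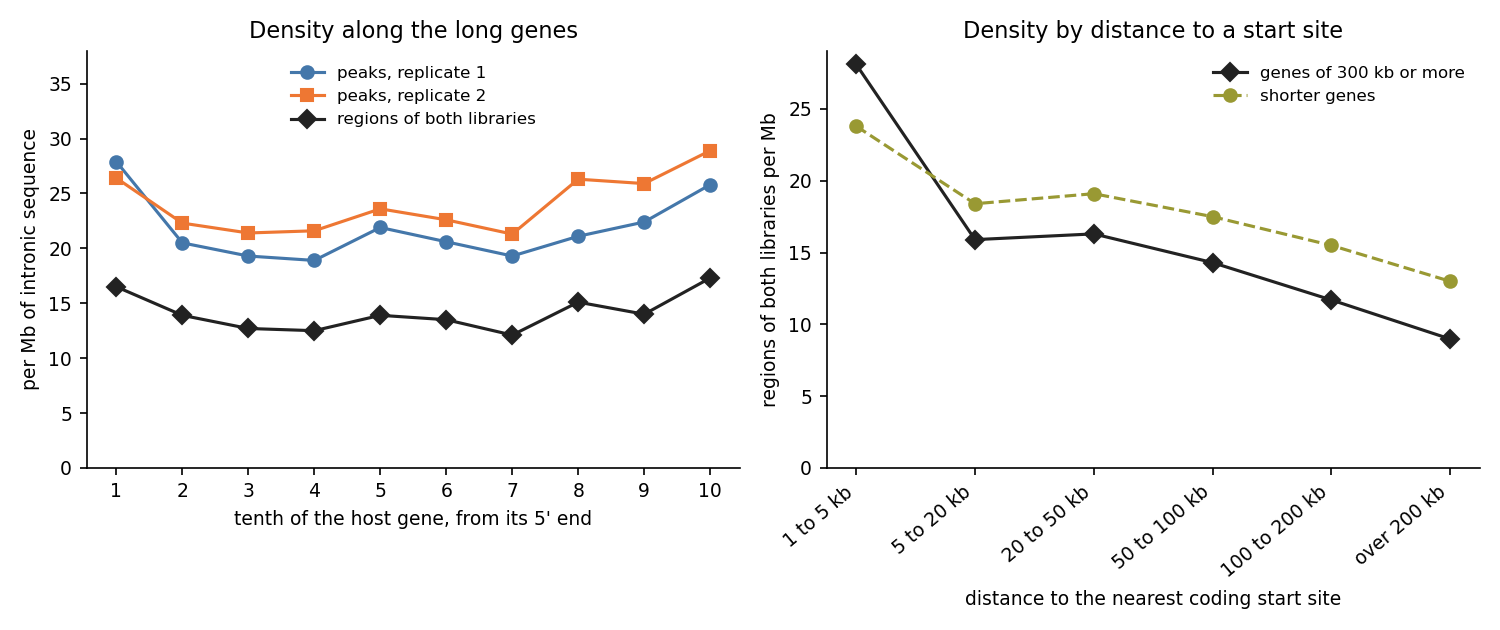
Left, regions per Mb in 10 equal parts of the gene from its 5′ end; right, regions per Mb by distance to the nearest protein-coding TSS in very long and in shorter genes. Density is highest in the outermost parts (16.5 and 17.3 per Mb) and, with distance, falls from 28.1 to 8.98 per Mb in very long genes. GC content is not held alike in either panel.

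Distance to a start site went with both number and value. From 1 to 5 kb of a TSS there were 439 regions at 28.1 per Mb, against 23.8 per Mb in shorter genes at that distance. From 5 to 20 kb the order was the other way, with 15.9 against 18.4, and it stayed so out to more than 200 kb. There the 518 regions of very long genes stood at 8.98 per Mb and shorter genes at 13.0, from 13 regions on 0.175% of their sequence. The median value was 0.712 and 0.799 from 1 to 5 kb and 0.514 and 0.648 beyond 200 kb. Beyond 200 kb the shared regions were therefore sparser, and weaker in each library, with GC content not held alike. In windows of like GC, very long genes had more regions per Mb at 1 to 20 kb from a TSS than beyond 20 kb. The exception was windows under 36% GC (1.87 and 2.85). The gap was small at 38 to 40% GC (8.08 and 7.53) and at 42 to 45% (21.6 and 20.4). It was wider at 36 to 38% (6.69 and 4.97) and at 50% or more. In shorter genes the sequence beyond 20 kb was the denser in each GC class. Neighbouring regions of a gene lay a median of 31.1 kb apart; 16.2% of the 3839 neighbouring pairs were within 5 kb, 15.7% were more than 100 kb apart, and the widest gap was 999.2 kb.

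The widest regions lay close to start sites. The widest of all, 1352 bp in Immp2l with values of 0.599 and 0.457, was 2586 bp from the TSS of Lrrn3, a gene nested in Immp2l. In Maml3, a coactivator of Notch signalling, a region of 1040 bp with 65.8% GC and 73 CpG dinucleotides lay 2695 bp from a TSS of the gene. It measured 1.27 and 1.08 and held the most footprints of any region, 17 in replicate 1 and 12 in replicate 2. Regions of 1040 bp in Gabrb1, a GABA-A receptor subunit gene, and of 960 bp in Caln1 lay 1009 and 1240 bp from a TSS of their gene. Among the 5 regions with the most footprints, an exception far from any start site was in the neuronal adhesion gene Astn2. It was 440 bp wide, lay 181462 bp from a TSS and had 7 and 10 footprints.

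Nearly all very long genes held at least 1 region. Of 563 genes with 100 kb or more of qualifying sequence, 538 (95.6%) had a region, and the quartiles were 3, 6 and 10 regions per gene and 6.33, 12.5 and 21.2 per Mb. The 27 genes with 20 or more regions held 898 of them. The acid-sensing channel gene Asic2 had the most outside the multi-gene records, 39. Csmd1, a complement-regulating membrane protein, had 37, the splicing factor gene Rbfox1 33 and Camta1 30. Dlg2, a scaffold of glutamatergic synapses, Kalrn, a guanine nucleotide exchange factor of dendritic spines, and Nav2 had 28 each. The Gm20388 record had 171 and the Fgfr2 record 71, counted over all the genes that they span.

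Density gave another order. Msra, which encodes a methionine sulfoxide reductase, had 22 regions at 68.4 per Mb, the highest density among genes with 5 or more. Maml3 had 53.3 per Mb, the AMPA receptor gene Gria1 51.8, Kalrn 49.8, the spindle checkpoint gene Mad1l1 47.7, the synaptic scaffold gene Shank2 47.4, the GABA-B receptor gene Gabbr2 47.2 and the neuronal zinc finger gene Myt1l 46.2. The introns of these genes were GC-rich, from 43.9% in Myt1l to 49.8% in Mad1l1, against a median of 40.7% over the 563 genes. The longest genes were sparse: Ptprd, a receptor phosphatase that organises synapses, had 17 regions at 7.63 per Mb over 2271 kb, Cntnap2, an axonal adhesion gene, 11 at 5.08 per Mb, and the dystrophin gene Dmd, on the X chromosome, 6 at 2.71 per Mb.

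The longest gene with no region was Naaladl2, at 1346 kb, although replicate 1 had 3 peaks and replicate 2 had 6 in its introns. Lrrtm4, a postsynaptic adhesion gene of 791 kb, had 4 and 1 peaks, Mgat4c (710 kb) had 2 in replicate 1 and none in replicate 2, Fstl5 (636 kb) had 1 and 3, and Mecom, a transcription factor gene of 597 kb best known from blood stem cells, had 1 and 2. In none of these 5 genes did a region shared by both libraries qualify. Their promoters had a peak in both libraries, as had those of most very long genes (92.7%). Promoter values were 1.07 and 1.02 at Naaladl2, 1.24 and 1.14 at Lrrtm4, and 1.30 and 1.53 at Fstl5. They were lower at Mgat4c (0.723 and 0.794) and Mecom (0.514 and 0.354).

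A promoter peak in both libraries was present at 522 of the 563 genes (92.7%), against 61.5% of all protein-coding genes, with median promoter values of 1.34 and 1.43. Genes with such a promoter had 14.4 regions per Mb (22.2 and 24.6 peaks in single libraries), and 22 of them had none. The 41 genes without one had 9.64 per Mb (15 and 15.1), and 3 had none. The median GC content of the introns was 40.8% in the first set and 39.5% in the second, and its part in the difference was not tested.

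Genes were also read by role, in 12 lists. Naaladl2, in the list of genes at fragile sites, was the 1 gene of the 12 lists without a region. Synaptic adhesion genes, whose proteins join the membranes of both sides of a synapse, were among the sparser lists: all 35 had a region, 334 in all, but the median was 10.3 per Mb against 12.5 over the 563 genes, at a median GC of 38.1%. Nrxn3, a presynaptic neurexin, had 27 regions (17.1 per Mb), Lsamp, a limbic system adhesion protein, 24 (11 per Mb), and Ntm, of the same family, 24 (25.2 per Mb). The 13 cadherin and catenin genes had 129 regions and a median of 10.6 per Mb, with Cdh13 at 24, Ctnna3 at 20 and Ctnna2 at 17. The 16 axon guidance genes had 101 regions and a median of 12.1 per Mb, led by the guidance ligand gene Slit3 with 16 and the plexin receptor gene Plxna4 with 14.

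Lists of receptors and channels lay on either side of the median of all very long genes. The 20 genes of glutamate receptors and their scaffolds had 228 regions and a median of 15.8 per Mb, with Dlg2 at 28, the scaffold gene Magi2 at 23 and Dlgap1, another postsynaptic scaffold gene, at 19. The 5 GABA receptor genes had 34 regions, 15 of them in Gabbr2, and a median of 10.6 per Mb. Gabrb1, a GABA-A subunit gene, had 5. The 26 ion channel genes had 212 regions and a median of 12.3 per Mb, led by Trpm3, a heat-sensitive cation channel gene, with 25, the calcium-activated potassium channel gene Kcnma1 with 22 and the L-type calcium channel gene Cacna1c with 15.

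The lists of signalling and gene control genes had medians above that of all very long genes. The 23 signalling genes had 225 regions and the highest list median, 20.5 per Mb. Over all of the sequence of the list their density was 15.7 per Mb, below the 17.0 of the transcription factor genes. The cAMP phosphodiesterase gene Pde4d had 21 regions, and the protein kinase C genes Prkce 20 (42.3 per Mb) and Prkca 15 (37.9 per Mb). The 31 transcription factor genes had 269 regions and a median of 15 per Mb, with Camta1 at 30, Auts2 at 26 and Nfib, a nuclear factor I gene, at 17 (43.2 per Mb). The 7 genes of RNA-binding proteins had 87 regions and a median of 13.1 per Mb, with Rbfox1 at 33, Rbfox3, whose protein is the neuronal marker NeuN, at 15 and Msi2 at 14. The median GC content was 41.4%, 42.7% and 42.1% in these 3 lists, above that of the adhesion lists.

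The lists of genes of glia and of other organs had the lowest medians. The 9 glial genes had 49 regions and a median of 6.63 per Mb, and the 13 genes chosen for use in other organs had 46 regions and a median of 7.75 per Mb at a GC content of 40.9%, close to the median of all. Of those 13, 8 had an open promoter in both libraries, while all 9 glial genes did. Pkhd1, a gene of polycystic kidney disease, had 8 regions. The 16 genes known from common fragile sites, which overlap other lists, had 228 regions at a median of 9.84 per Mb. A median over a list of this size is a description of these 2 libraries and was not tested.

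Markers of cell types were spread over all classes. Among astrocyte genes, Gpc5 and the bicarbonate transporter gene Slc4a4 had 8 regions each, Npas3 had 5 and Prex2 had 3. Among genes of oligodendrocyte precursors, Pcdh15 had 10, the matrix gene Tnr 7, Lhfpl3 5 and Sox6 1, and the oligodendrocyte gene St18 had 2. Interneuron genes ranged from 2 in Adarb2 and Zfp536 through 3 in the receptor gene Erbb4 and 4 in Nxph1 to 12 in Kcnip1, at 34.5 per Mb. Among genes of excitatory neurons, Nrg1, the ligand of the Erbb4 receptor, had 11, Foxp1 had 5 and Kcnh7 had 3. Each of these genes held a region, as did 95.6% of the 563 very long genes, so their presence says nothing of a cell type. Oligodendrocytes were represented by St18 alone. Which cells were open at these regions is not resolved in bulk tissue.

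Most regions carried footprints, but fewer of them than elsewhere. A footprint in both libraries was present in 3512 regions (80.2%), against 84.7% of all shared regions and 86.0% of those in shorter genes. The mean number was 2.22 per region in replicate 1 and 2.09 in replicate 2, 113 regions (2.58%) had none in either, and 4.96% of the bases of the regions lay in a footprint of both libraries. The regions were also less often on the shorter peak lists: 1838 of them (42%) had a peak of the shorter list in both libraries, against 59.4% of all shared regions and 49.8% of those in shorter genes. A cut rate with a false discovery rate under 0.001 was reached in 57.9% of the regions in replicate 1 and 63.6% in replicate 2; for shorter genes these shares were 65.9% and 68.7%. Footprints and the shorter list both went with the value of the region. From the weakest to the strongest quartile of mean value, the share with a footprint in both libraries was 54.0%, 77.2%, 91.0% and 98.7%, and the share on both shorter lists was 4.11%, 16.0%, 54.3% and 93.6%.

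Sequence motifs were counted on both strands in the central 200 bp of each region. For comparison they were counted in windows of the same width 1 kb to either side. The window of a region under 200 bp reaches past it. Numbers of exact matches were taken over whole regions instead, and a match was placed in a footprint by its middle base. A match is a description of the letters and not a bound site. CTCF had the largest excess. Its consensus was present in 322 regions (7.36%), in 0.194% of the flanking windows, a ratio of 37.9, and in 11.3% of regions in shorter genes. Of its 327 matches over whole regions, 273 (83.5%) lay inside a footprint of both libraries, although 4.96% of the bases of the regions did. The match read along the gene in 164 cases and against it in 163. With 1 base off allowed, a count added after the sequences had been seen, 920 regions (21%) had a match, against 29.6% in shorter genes and 1.56% of the flanks, and 69.9% of 958 matches lay in a footprint of both libraries. Of the 100 strongest regions, 60 had such a match, 27 of them exact.

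Regions with the CTCF consensus were the stronger ones. Their median value was 1.08 in replicate 1 and 0.999 in replicate 2, against 0.582 and 0.702 without it. From the weakest to the strongest quartile, the share with the consensus was 2.1%, 3.75%, 6.58% and 17.0%. By density, with GC content not held alike, very long genes had 1.04 regions with the consensus per Mb and shorter genes 2.23. Regions without it stood at 13.1 and 17.6 per Mb, so the distance between the gene classes was wider for CTCF. By gene length the share was 10.9% under 10 kb, 14.8% at 10 to 30 kb, 12.4% at 30 to 100 kb, 9.34% at 100 to 300 kb, 6.92% at 300 to 500 kb and 7.08% at 500 kb to 1 Mb, and 8.6% at 1 Mb or more.

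**Figure D4:**
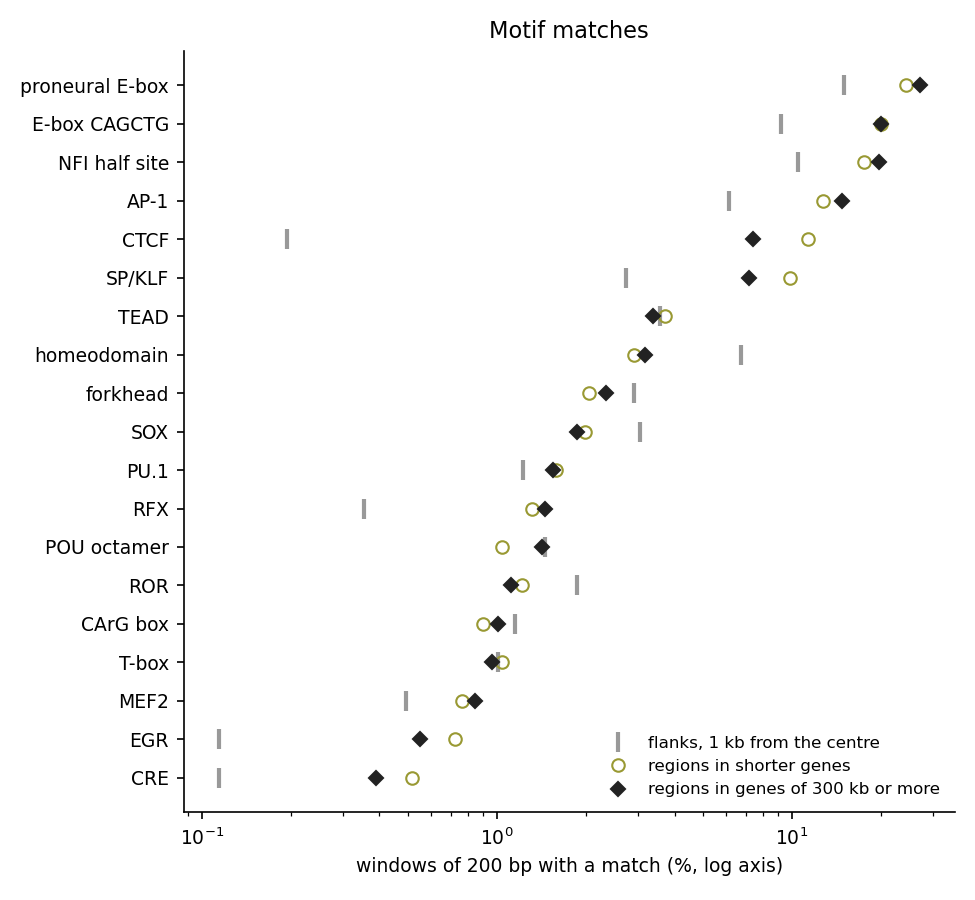
Share of central 200 bp windows with a motif match, in percent on a log axis, for the regions in very long genes, for regions in introns of shorter genes and for windows 1 kb to either side of the regions in very long genes; motifs in at least 0.3% of the regions are drawn. CTCF stands farthest from its flanks (7.36% against 0.194%), and the homeodomain motif lies below them.

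The AP-1 and proneural motifs were present in a larger share of regions in very long genes than in shorter ones. Their density per Mb was lower, with GC content not held alike. Of the bases of the regions, 4.96% lay in a footprint of both libraries. The share of AP-1 matches in a footprint was below this, and that of proneural matches above it. TGANTCA, with any middle base, was present in 648 regions (14.8%), against 12.7% in shorter genes and 6.11% of the flanks. Of its 833 matches over whole regions, 13 (1.56%) lay in a footprint of both libraries. By gene length its share was 9.31% under 10 kb, 9.75% at 10 to 30 kb, 12.2% at 30 to 100 kb, 14.0% at 100 to 300 kb, 13.4% at 300 to 500 kb, 16.2% at 500 kb to 1 Mb and 15.6% at 1 Mb or more. Per Mb of sequence there were 2.09 regions with this motif in very long genes and 2.5 in shorter ones. CAGATG, an E-box bound by the proneural factors NEUROD and NEUROG, was present in 1187 regions (27.1%), against 24.3% in shorter genes and 15% of the flanks, with 9.53% of its matches in a footprint. Per Mb there were 3.82 such regions in very long genes and 4.8 in shorter ones. Unlike CTCF, both were no more common among strong regions: the share with AP-1 was 16.4% in the weakest quartile and 11.2% in the strongest, and with CAGATG 29.1% and 23.5%.

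Other motifs ranged from enriched to depleted against the flanks. RFX matches were rare, in 64 regions (1.46%) against 0.354% of the flanks, but 26 of their 73 matches (35.6%) lay in a footprint, as in neither E-box nor AP-1 matches. TTGGCA, the core letters of nuclear factor I sites, was present in 19.7% of regions against 10.5% of flanks, and the E-box CAGCTG in 20.1% against 9.21%. The SP/KLF motif, typical of promoters (50.5% of shared promoter regions), was present in 7.13% of the regions, with 9.85% in shorter genes. Some motifs were less common inside the regions than beside them, with the homeodomain motif TAATTA at 3.18% against 6.74%, SOX at 1.87% against 3.06% and ROR at 1.12% against 1.87%. The AT-rich MEF2 motif CTAAAAATA was more common inside, at 0.845% against 0.491%, and the POU octamer was level, at 1.42% against 1.46%. The regions were richer in GC than the sequence around them, and its part in these shares was not tested.

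The difference between the libraries followed the motifs. Regions with the CTCF consensus had a median log2 ratio of replicate 1 to replicate 2 of 0.04, and 54.3% were higher in replicate 1, whereas those without it had -0.24 and 27.1%. Regions with AP-1 stood at -0.32, with CAGATG at -0.31 and with RFX at -0.42, where 10 of 64 were higher in replicate 1. The same order held in introns of shorter genes, at 0.06 with the CTCF consensus and -0.21 without it, so it is not particular to very long genes. With 1 library on either side, a difference in the cells sampled and one in how the libraries were made cannot be told apart.

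The X chromosome stood below the autosomes. It held 65 of the regions, at 4.16 per Mb (8.26 and 7.68 peaks in single libraries), where the autosomes held 4312 at 14.6 per Mb (22.4 and 24.8). Single autosomes ranged from 10.9 per Mb on chromosome 1 to 19.5 on chromosome 11. Median values were 0.39 and 0.485 on the X and 0.605 and 0.725 on the autosomes. Introns of shorter genes showed the same order, with 6.73 per Mb on the X and 20.5 on the autosomes. The qualifying sequence of the X had a GC content of 37.2% against 40.8%. In female mice such as these one X of each cell is silenced, and peaks of the active and the silenced copy are not separated in these files. The part of GC content was not tested.

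Some weak peaks, in very long genes as elsewhere in the genome, formed runs, which often had no counterpart in the other library. A run was taken, after the data had been seen, as 8 or more peaks of a library with values under 0.25 and at most 5 kb apart. Over the whole genome replicate 1 had 85 such runs with 1045 peaks. Replicate 2 had 223 with 3566 peaks, or 4.06% of its list, and 22 runs of each library overlapped a run of the other. A peak of the other library lay within 46 of the 85 runs and 109 of the 223. The runs had a median length of 7.87 and 9.82 kb, their peaks followed each other at a median of 500 and 520 bp, and the median value was 0.147 and 0.143. Of these runs, 14 in replicate 1 and 32 in replicate 2 had a peak in an intron of a very long gene. Their overlap between the libraries was not counted apart. In introns of very long genes the runs held 148 peaks of replicate 1 (2.2%) and 390 of replicate 2 (5.24%). Introns of shorter genes had like shares, 2.22% and 5.92%. The rule that a region be open in both libraries removed most of this: 34 of the 4377 regions (0.777%) lay inside a run.

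**Figure D5:**
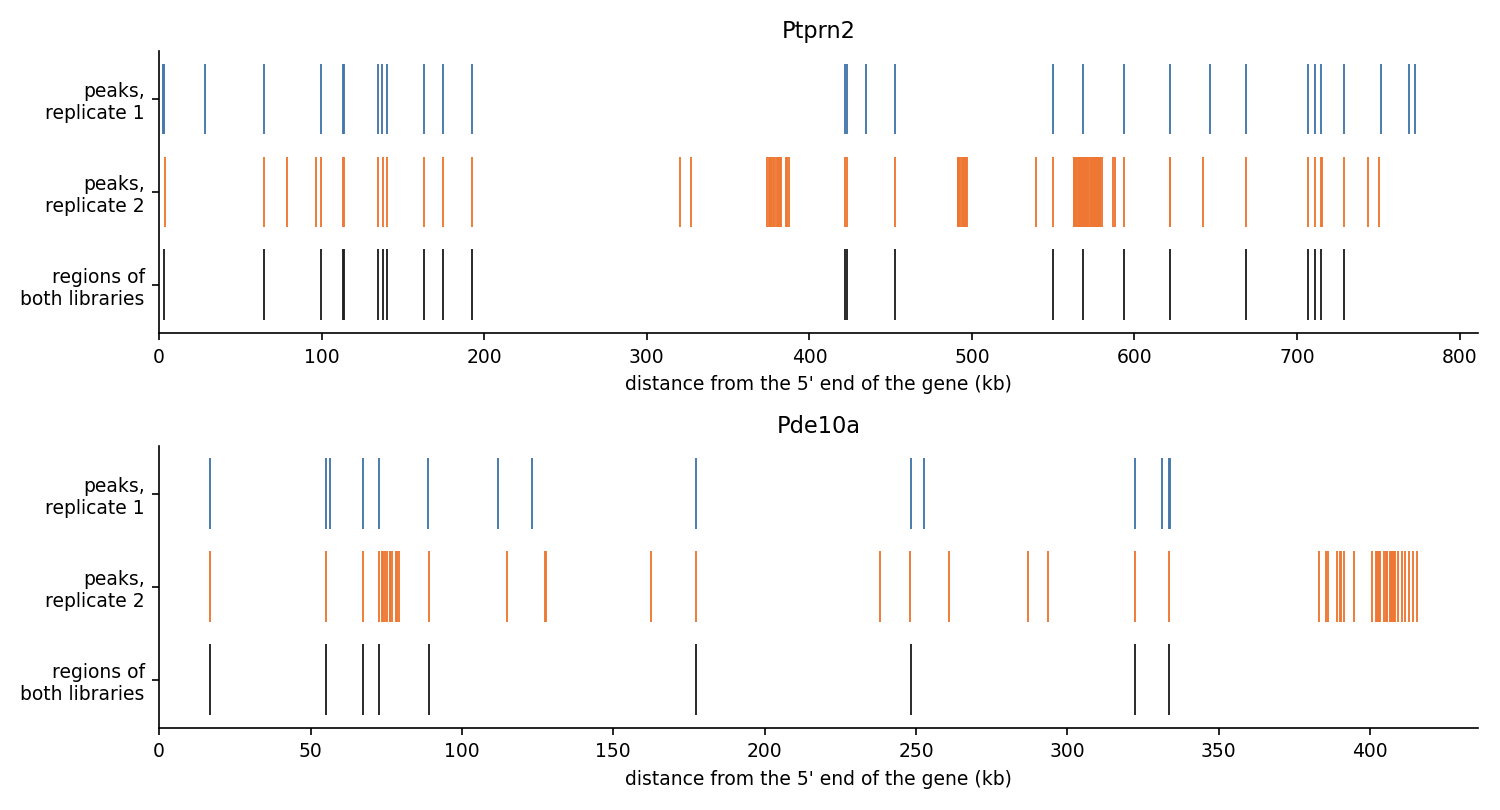
Peaks of replicate 1, peaks of replicate 2 and shared regions along Ptprn2 and Pde10a, by distance from the gene's 5′ end in kb. The dense blocks of replicate 2 peaks (52 of its 95 peaks in Ptprn2 and 28 of its 57 in Pde10a are in runs) have almost no counterpart in replicate 1 or among the shared regions.

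Ptprn2, a secretory granule protein gene, had the most peaks in such runs. It had 30 peaks in replicate 1 and 95 in replicate 2, of which 52 were in runs, and 23 shared regions. Its longest run, chr12:117048101-117065520, had 28 peaks of replicate 2 with a median value of 0.14 over 17.4 kb and 1 peak of replicate 1. In Pde10a, a cyclic nucleotide phosphodiesterase gene, the counts were 15 and 57, with 28 peaks in runs of replicate 2, and 9 shared regions. A run of 32.5 kb there, chr17:8908523-8941031, had 24 peaks of replicate 2 with a median value of 0.188 and no peak of replicate 1. In Sh3rf3 runs were present in both libraries, with 18 and 19 peaks. Dner, a Notch ligand gene, was an example of the other direction, with 33 peaks in replicate 1 and 9 in replicate 2. Counts of peaks of a single library in such genes therefore depended on the library, and what made the runs was not tested.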

How the data were processed

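Per notes deposited beside the files, coordinates are on mm10 and each library had its own peaks, footprints and cut rates, without pooling. Aligner, callers, versions and depth: not given in the sources used here. The peak value is the authors' read-depth normalized signal, with no p-value beside it. The deposited table of cut rates gives a false discovery rate, a q-value, for positions at or under 0.05. The deposited footprint lists carry 1 constant, 0.01, read as the p-value threshold of the call.

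Peaks of the longer lists were merged when they touched or overlapped by 1 bp, and a region's value in a library was that of its strongest peak. A region in several genes was assigned to the longest. Genes, exons and start sites came from GENCODE vM21 and sequence from GRCm38.p6, the same build. Density is regions per Mb of gene body, less exons and 1 kb around each protein-coding TSS. At like GC content, the density of shorter genes in each GC class of 10 kb windows was applied to the sequence of very long genes. Intron numbers follow the coding transcript with the longest span. Motifs were matched by consensus. Named genes are the 10 with the most regions, the 10 densest with 5 or more, the 5 longest, the 5 longest without a region, and up to 3 per list; named regions are the 10 strongest, the 5 widest, the 5 with the most footprints and the 5 farthest apart between libraries in either direction. Some genes that this rule names are not reported here. The 261 list entries all matched a gene. The regions, lists and motifs were chosen with earlier results of these data known. Python 3.11.15, pandas 2.3.3, numpy 2.4.6 and scipy 1.17.1 were used, and the scripts were tested on simulated data.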

Additional observations from a re-analysis of the deposited data

How the results depend on the processing

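The shorter peak lists changed the picture most: they gave 1842 regions, 5.93 per Mb, a density ratio of very long to shorter genes of 0.6, a median value of 1.0, a footprint in both libraries in 95.2% and a ratio at like GC content of 1.01. Genes of 500 kb or more gave 2397 regions and a ratio of 0.658, and genes of 200 kb or more gave 81.6% with footprints and a ratio of 0.773. More than 2.5 kb from a TSS the first 10% of the gene's length held 9.53% of the regions and the ratio was 0.723. The ratio was 0.687 without the multi-gene records and 0.699 where the shortest gene over the region had to reach 300 kb, 2 alternatives added after the data had been seen. Holding the distance to the TSS alike took the ratio at like GC content to 1.06, and to 0.958 with the shorter lists as well. Peaks of a single library, leaving out each replicate in turn, gave 6662 to 7387 regions, 21.5 to 23.8 per Mb, ratios of 0.744 to 0.758, median values of 0.497 to 0.56, footprints in 76.3% to 77.7% and ratios at like GC content of 1.16 to 1.17. The density ratio was below 1 under each of these settings, and that at like GC content was above 1 under each single change to all of the sequence. Genes of 200 kb or more gave 6214 regions. For the other results and settings, counts of regions stayed within 1.5 times the main count and other values moved by less than 1 SD between the libraries. The cause of these shifts was not tested, beyond the smaller sets that the stricter lists and limits leave. No paired analysis was possible because the study has 1 group. The number of libraries limits every comparison: 2 give no test, and a spread between them cannot be divided into animal and preparation. Depth is not known, so a gene without a shared region had none detectable at this depth.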
